A study of Mus musculus with 7 samples.

Results

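The cytosolic ribosomal protein genes were followed across 4 populations of cells sorted from the mouse intestine. A gene was counted when an array probe carried a name beginning with Rpl or Rps and a digit, or the name Rplp0, Rplp1, Rplp2 or Rpsa. The 10 Rps6k kinases and the pseudogene Rps2-ps4, 11 names in all, were left out. This gave 85 genes of the 28146 names on the array: 46 large subunit proteins, 31 small subunit proteins, 7 paralogs and Rps19bp1, a partner protein of Rps19 that is no part of the ribosome. The genes had 140 probes, of which 134 stood above background in the sample channel on at least 2 of 7 arrays, and 84 genes were measured. Rpl39l, a paralog of Rpl39, had no probe above background on any array.

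Ribosomes make all cellular protein, and their proteins are joined to ribosomal RNA in the nucleolus as the large and the small subunit. Messenger RNAs of these proteins usually begin with a C followed by a stretch of pyrimidines, called a terminal oligopyrimidine or TOP tract. The kinase complex mTORC1 controls the translation of TOP mRNAs through Larp1 and the 4E-binding proteins. In the intestinal crypt, Lgr5 marks dividing stem cells, and Dll1 marks precursors of the secretory cells, which include Paneth, goblet and enteroendocrine cells. Paneth cells secrete antimicrobial peptides and carry much CD24 on their surface.

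Dll1-EGFP-ires-CreERT2 mice, in which the Dll1 promoter drives GFP and an inducible Cre, gave cells with high GFP, which were parted by their surface level of CD24 into high, medium and low, the names used below. Each CD24 level had 2 biological replicates. Lgr5-EGFP-ires-CreERT2 mice, in which the Lgr5 promoter drives the same proteins, gave 1 sample of cells with high GFP, so that the spread of this group is unknown. All 7 samples were labelled with Cy3 and hybridised against total RNA of whole small intestine labelled with Cy5, each on its own 2-colour array. Values below are log2 ratios of sample over whole intestine after loess normalization within each array, and a difference of 1 is a 2-fold difference. Tests are limma's, adjusted by Benjamini-Hochberg over 17390 genes (17344 in comparisons with Lgr5), with a threshold of 0.05.

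The sort marker Cd24a had ratios of 3.34 and 3.47 in high, 0.88 and 0.75 in medium, and -0.68 and -0.59 in low. Dll1, whose promoter drives the sorted GFP, had 0.61 and -0.04 in high, 2.81 and 2.53 in medium, 2.56 and 2.52 in low, and 0.88 in Lgr5, so that its mRNA was low in cells labelled CD24 high. Lgr5 had its top ratio, 2.51, in the Lgr5 sample, and 1.36 and 1.31 in CD24 high. Of 8 epithelial markers on the array, 8 stood above background on every array. The 8 Paneth markers did so too, with a summed sample signal of 10700000 and 11000000 in high, 512000 and 587000 in medium, 111000 and 114000 in low, and 88600 in Lgr5. Goblet markers summed to 525000 and 707000 in high, 2290000 and 3080000 in medium, 3240000 and 5090000 in low, and 79000 in Lgr5. Of 10 immune markers, 4 to 9 stood above background. They summed to 14800 and 20600 in high, 17300 and 18500 in medium, 20700 and 27000 in low, and 45600 in Lgr5. Enteroendocrine markers, of which 5 to 7 of 7 stood above background, summed to 71300 and 77000 in high, 468000 and 1130000 in medium, 226000 and 414000 in low, and 17400 in Lgr5. Markers of mesenchyme and endothelium, 7 or 8 of 8 above background, summed to 7950 and 9110 in high, 6930 and 7300 in medium, 6630 and 9190 in low, and 5260 in Lgr5. Of the 7 such genes tested, 5 fell in CD24 medium against CD24 high (median -0.93), and 7 were higher in CD24 high than in Lgr5 (median 1.37). The shares of all genes were 12.4% and 20.5%. The sample channel was above background on 44.4% and 42.5% of gene spots in CD24 high and on 52.8 to 60.5% elsewhere. The part of these shifts in cell content and signal in the results below was not tested, and in sorted bulk samples fewer cells of a type and less RNA per cell cannot be told apart.

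RefSeq promoter windows of build GRCm38.p6 were given for 57 of the 77 subunit genes. A TOP start, here a C at the annotated start followed by at least 4 bases that are each C or T, read on the gene's strand, was present in 13 of them, or 22.8%. All genes with a window had it in 3.01%, which is 813 of 27025. The large subunit had 7 of 34 and the small subunit 6 of 23. None of the 6 paralogs with a window had it. The following windows show 15 bases before and 15 from the start for genes that the results turn on, with the pyrimidine run from the start in capitals.
Rpl14 (chr9:120571502-120571531, plus strand): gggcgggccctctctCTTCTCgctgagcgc
Rps6 (chr4:86857353-86857382, minus strand): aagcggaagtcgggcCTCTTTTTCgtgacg
Rps27 (chr3:90213634-90213663, minus strand): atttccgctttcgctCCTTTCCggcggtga
Rpl27a (chr7:109519180-109519209, plus strand): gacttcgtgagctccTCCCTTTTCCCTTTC
Rps27l (chr9:66946071-66946100, plus strand): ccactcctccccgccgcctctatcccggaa
Rpl36al (chr12:69184053-69184082, minus strand): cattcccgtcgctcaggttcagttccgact
Rpl22l1 (chr3:28805493-28805522, plus strand): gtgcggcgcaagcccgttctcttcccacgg
Rpl14, Rps6 and Rps27 hold a TOP start. Rpl27a holds a long pyrimidine run that opens with T at the annotated start and so fell outside the definition. The 3 paralogs start with a purine. Rpl22 and Rpl36a, partners of paralogs printed here, and Rpl31 and Rps9 hold no TOP start either. The same was so for 44 of the 57 subunit genes in all. A start annotated a few bases off would change this reading. The 13 subunit genes with a TOP start had a median difference of 0.43 between CD24 medium and CD24 high, and the 44 without one 0.44. Against Lgr5 the mean of the Dll1 groups had medians of -0.74 and -0.65.

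The 77 subunit genes stood highest in the Lgr5 cells and lowest in the CD24 high cells. Their median ratio was 0.70 in Lgr5, 0.26 and 0.24 in CD24 medium, 0.04 and 0.13 in CD24 low, and -0.17 and -0.27 in CD24 high. With loess the replicates of each CD24 level lay closer to each other than to any array of another level. In the sample channel alone this did not hold for CD24 low. There the median of low 2, 13.645, lay nearer to medium 1 at 13.678 and medium 2 at 13.717 than to low 1 at 13.481. Ratios were above 0 for 70 subunit genes in Lgr5, 56 and 52 in CD24 medium, 42 and 52 in CD24 low, and 21 and 16 in CD24 high. After loess a ratio of 0 is the trend at a gene's intensity, not a level equal to whole intestine. With arrays centred on their median in place of loess, the subunit median was -0.04 in Lgr5 and -1.39 and -1.61 in CD24 medium. It was then -1.93 and -2.07 in CD24 low, and -3.35 and -3.70 in CD24 high. Group means fell in the order Lgr5, medium, low, high from the top for 59 of the 76 subunit genes with a value on all arrays, and for 8.25% of all genes. This order is that of the medians of these same genes, so a high share among them was built in. With the sample channel taken alone, 23 of the 77 subunit genes had CD24 low above CD24 medium. Rpl4 had no value on medium 1 and was fitted without that array.

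The medians of the large and the small subunit lay close together on every array. The large subunit medians were 0.71 in Lgr5, -0.15 and -0.29 in high, 0.26 and 0.28 in medium, and 0.04 and 0.14 in low. For the small subunit they were 0.70, then -0.17 and -0.27, 0.27 and 0.17, and 0.02 and 0.08. The large minus small median on an array ranged from -0.02 to 0.11. Within an array the ratios of the subunit genes had an SD of 0.37 to 0.54 over genes.

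**Figure D1:**
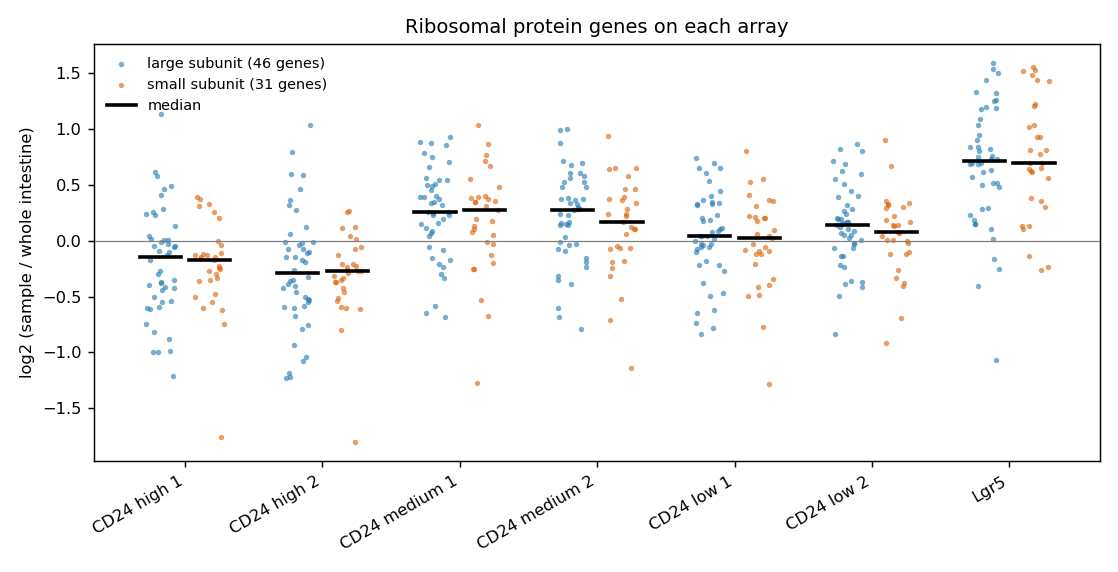
Log2 ratio of sample over whole intestine for 46 large subunit genes (blue) and 31 small subunit genes (orange) on each of the 7 arrays, with 1 point per gene and a bar at each median. The medians of both subunits lie near 0.7 in Lgr5 and below 0 on both CD24 high arrays.

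The size of these shifts changed with the normalization, and 27 of the 100 brightest genes on the array were ribosomal protein genes. Whether their brightness sets this change was not tested. Before normalization, the median sample intensity of the 140 probes was 3874 and 3420 in high, 17004 and 17331 in medium, 14516 and 12394 in low, and 37902 in Lgr5. The reference channel gave 103794 to 121370. Loess sets the trend of the ratio at each intensity to 0 on each array and so takes out a shift that bright genes share. With the arrays centred on their median and no loess, the median over subunit genes was 1.94 for CD24 medium minus CD24 high, 1.47 for low minus high, -0.47 for low minus medium and -2.21 for the Dll1 mean minus Lgr5. With loess it was 0.44, 0.26, -0.14 and -0.69 in the same order. The sample channel alone gave 0.72, 0.63, -0.09 and -0.89. The direction of the median was the same under each of these scalings and with Agilent's processed signals. With median centring and no loess the other 73 of the 100 brightest genes also had a median of 1.76 for medium minus high. For the Dll1 mean minus Lgr5 it was -1.74. With loess they had 0.07 and -0.08, beside 0.32 and -0.57 for the 27 ribosomal protein genes among the 100. This set of bright genes was chosen after the values were seen.

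**Figure D2:**
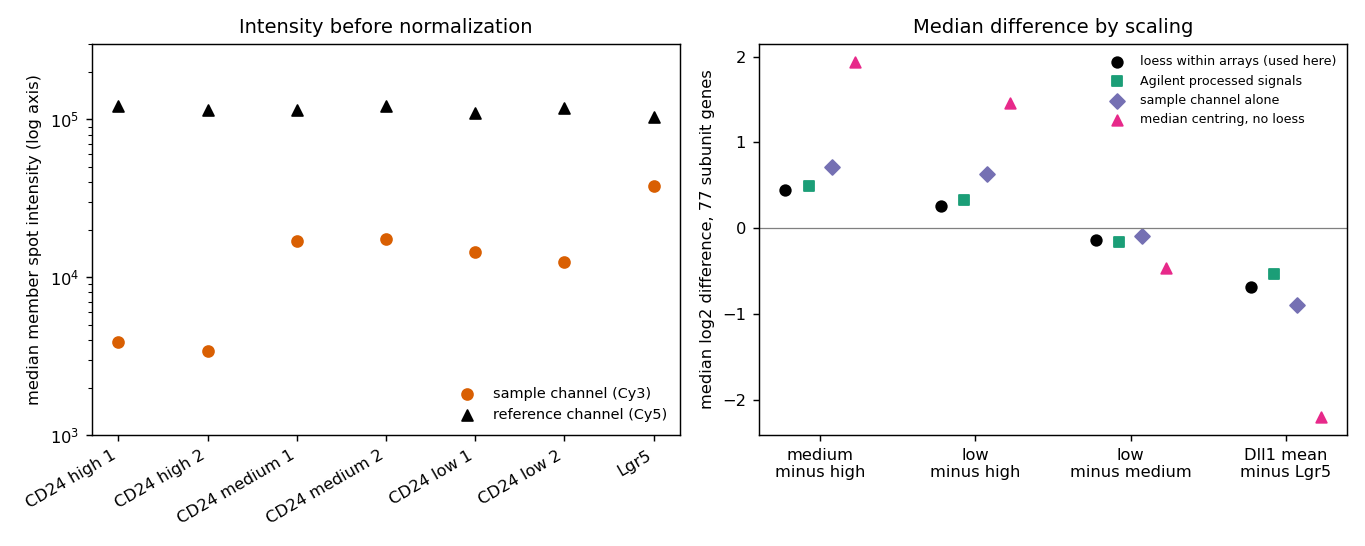
Left, median spot intensity of the 140 probes before normalization, on a log axis, for the sample and the reference channel of each array. Right, median log2 difference over 77 subunit genes in 4 comparisons under 4 scalings. The medians keep their direction, and those with median centring and no loess are the farthest from 0.

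Between CD24 medium and CD24 high, 26 ribosomal protein genes rose, 2 fell and 56 of the 84 did not pass the test. The paralogs Rps27l and Rpl36al were the 2 that fell. Among all genes tested 6.98% were called higher and 12.4% lower, together 19.4%. The genes that rose were 16 of 46 in the large subunit, 9 of 31 in the small subunit and the paralog Rps4y2. The median difference was 0.42 in the large and 0.47 in the small subunit, against 0.0046 over all genes. Both medium arrays stood above both high arrays for 63 of the 77 subunit genes, and for 32.6% of all genes.

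Rpl14, a large subunit protein, had ratios of -0.99 and -1.18 in high, 0.49 and 0.29 in medium, 0.20 and 0.17 in low, and 1.59 in Lgr5. It stood 2.78-fold higher in the medium than in the high cells (log2 difference 1.47, SE 0.16, adjusted p = 0.0024). Rpl27a, also of the large subunit, had -1.0 and -1.23 in high, 0.34 and 0.33 in medium, 0.01 and 0.07 in low, and 1.19 in Lgr5. Both genes thus ran in the order of the group medians with wider steps. Rpl27a was 2.73-fold higher in the medium than in the high cells (1.45, SE 0.15, adjusted p = 0.0021).

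Rpl22 binds RNA in the large subunit and is dispensable in many cell types. Its ratios were -0.88 and -1.07 in high, 0.26 and 0.37 in medium, -0.06 and 0.24 in low, and 1.32 in Lgr5. Its medium minus high difference was 1.29 (SE 0.17, adjusted p = 0.0052), and its 2 probes gave 1.04 and 1.54. Rpl31, a large subunit protein, rose by 1.03 (SE 0.15, adjusted p = 0.0071) and Rps9, a small subunit protein, by 0.93 (SE 0.15, adjusted p = 0.011). Rps4y2, described with the paralogs, rose by 1.39, and the other genes that rose had differences between 0.53 and 0.91.

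Rpl14, Rpl27a and Rps4y2 passed the threshold under each of the 24 alternatives run, with differences of 1.37 to 2.35, 1.34 to 2.63 and 1.27 to 2.30. The count of calls held less well. Fewer of the 28 genes were called without CD24 high 1, CD24 high 2, CD24 medium 1 or CD24 medium 2, and with slide 2 alone. In all of these but the first, the share called in either direction was near or below that of all genes. The subunit median was 0.47, 0.42, 0.41, 0.48 and 0.43 in the order given. Median centring in place of loess called 82 higher and none lower, beside 6256 and 673 of 17390 genes.

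**Figure D3:**
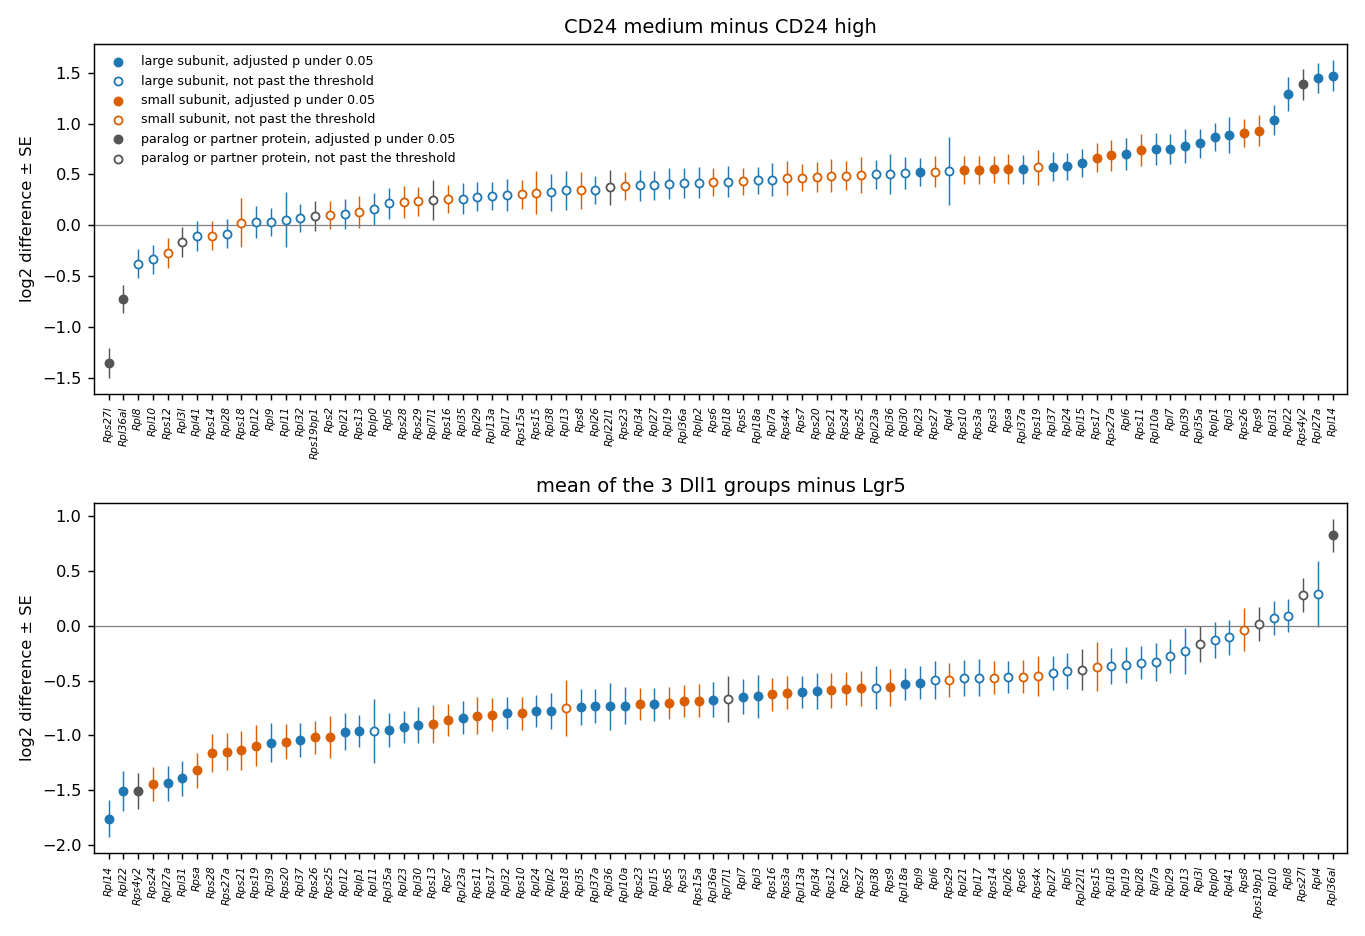
Log2 difference with its SE for 84 ribosomal protein genes, ranked, for CD24 medium minus CD24 high (top) and the mean of the 3 Dll1 groups minus Lgr5 (bottom), with filled points past the threshold. The paralogs Rps27l and Rpl36al lie apart at -1.36 and -0.73 in the top panel, and both of these values turn above 0 with median centring in place of loess, at 0.29 and 0.77.

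CD24 low differed from CD24 high in the same direction with smaller steps. Here 15 genes rose, 2 fell and 67 did not pass, beside 6.34% of all genes called higher and 10.3% lower, together 16.6%. The large subunit gave 10 of the rises and the small subunit 4, with medians of 0.27 and 0.25. Rps4y2 rose by 1.54 (SE 0.15, adjusted p = 0.0016), Rpl14 by 1.27, Rpl27a by 1.16, Rpl22 by 1.07 and Rpl3, a protein near the peptidyl transferase centre of the large subunit, by 0.86 (SE 0.18, adjusted p = 0.024). Rps27l fell by 1.39 (SE 0.14, adjusted p = 0.0019), and stood at -0.08 (adjusted p = 0.84) with median centring in place of loess.

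Rpl10, which is among the last proteins to join the large subunit, also fell, by 0.63 (SE 0.14, adjusted p = 0.032). Its ratios were 1.14 and 1.04 in high, 0.79 and 0.72 in medium, 0.53 and 0.39 in low, and 0.70 in Lgr5, so that CD24 high stood highest and the Lgr5 sample lay within the range of the others. Both low arrays lay below both high arrays for 8 of the 77 subunit genes, beside 29.6% of all genes. Its 2 probes differed in size, at -0.96 and -0.29. With median centring in place of loess its difference turned to 0.65, and it passed the threshold in 12 of 24 alternatives, with adjusted p from 0.012 to 0.28. Fewer of the 17 calls held without CD24 high 1, CD24 high 2, CD24 medium 1, CD24 medium 2 or CD24 low 2. The subunit median was 0.31 without CD24 high 1, 0.25 without CD24 high 2 and 0.24 without CD24 low 2. With slide as a term 6 of 84 genes were called higher and 1 lower, beside 755 and 1344 of 17390 genes. In each of these fits the share called in either direction was below that of all genes.

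Between CD24 low and CD24 medium no ribosomal protein gene passed the test in limma, and 1 of 84 had an unadjusted p under 0.05, beside 10.3% of all genes. Of all genes 0.0978% were called, which is 17 genes. Differences ran from -0.36 to 0.23 in the subunit genes, with medians of -0.13 in the large and -0.16 in the small subunit and 0.04 over all genes. Both low arrays lay below both medium arrays for 46 of the 77 subunit genes, beside 18.2% of all genes.

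All 3 Dll1 groups lay below the Lgr5 sample. For their mean, 52 ribosomal protein genes fell against Lgr5, 1 rose and 31 did not pass, while 12.9% of all genes were called lower and 16.5% higher, together 29.4%. The falls were 27 of 46 in the large subunit, 24 of 31 in the small subunit and Rps4y2, and the rise was Rpl36al. Medians were -0.65 and -0.72, beside 0.13 over all genes. The Lgr5 value lay above all 6 Dll1 arrays for 69 of the 77 subunit genes, and for 24.9% of all genes.

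Rpl14 had the largest difference, with a mean over the Dll1 groups 3.39-fold lower than Lgr5 (-1.76, SE 0.17, adjusted p = 0.0013). Rps24, a small subunit protein, had ratios of -0.13 and -0.21 in high, 0.40 and 0.24 in medium, 0.06 and 0.08 in low, and 1.52 in Lgr5. The Lgr5 value stood clear of 6 Dll1 values that lay within a narrow range, and the difference was -1.45 (SE 0.15, adjusted p = 0.0020). Its 3 probes gave -0.56, -2.25 and -1.53, and with the brightest probe alone the difference was -0.56 (adjusted p = 0.041). Rpl22 and Rps4y2, both at -1.51, lay between Rpl14 and Rps24, and Rpl27a and Rpl31 had -1.44 and -1.39. With its brightest probe alone Rpl22 had -0.88 (adjusted p = 0.013).

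Each Dll1 group was also set against Lgr5 alone, and these comparisons share the single Lgr5 array. CD24 high gave 63 falls and 2 rises, beside 14% and 20.5% of all genes, together 34.6%, with a subunit median of -0.91. CD24 medium gave 22 falls and no rise, beside 8.47% and 9.52%, together 18%, with a median of -0.50. CD24 low gave 36 falls and 1 rise, beside 9.21% and 11.2%, together 20.4%, with a median of -0.64. Most of the 22 calls of CD24 medium were lost without CD24 medium 1 and without CD24 medium 2, where 1 array of that level is left. The share of ribosomal protein genes called lower was then near or below that of all genes. The subunit median was -0.53 without CD24 medium 1 and -0.51 without CD24 medium 2. Fewer of the 37 calls of CD24 low held without CD24 medium 1, CD24 medium 2, CD24 low 1 or CD24 low 2. The subunit median was -0.60 without CD24 low 1 and -0.64 without CD24 low 2. With slide as a term 2 calls were left. Lgr5 was hybridised on slide 1 beside CD24 high 1 and CD24 medium 1, and on that slide the subunit medians against Lgr5 were -0.91 and -0.51. Both CD24 low arrays were on slide 2, so no CD24 low array shared a slide with Lgr5. With slide as a term 2 of 84 genes were lower in CD24 low, beside 432 of 17344 over all genes. That share was not above that of all genes.

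By place in the ribosome, proteins of the P stalk, which recruits the translation factors, differed among themselves. Rplp1 rose between CD24 high and CD24 medium by 0.87 (SE 0.13, adjusted p = 0.0088), from -0.54 and -0.52 to 0.35 and 0.33. Rplp2 had a difference of 0.42 (adjusted p = 0.099), Rplp0, the stalk's base, 0.16 (adjusted p = 0.50), and Rpl12 0.03 (adjusted p = 0.92). Against Lgr5 the Dll1 mean had differences of -0.96 for Rplp1, -0.78 for Rplp2 and -0.97 for Rpl12, all past the threshold, and of -0.13 for Rplp0 (adjusted p = 0.59).

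Rpl5 and Rpl11 carry the 5S ribosomal RNA into the large subunit and, when free, bind Mdm2. Neither passed in any comparison between CD24 levels. Rpl5 had ratios of -0.38 and -0.58 in high, -0.33 and -0.19 in medium, -0.49 and -0.39 in low, and 0.02 in Lgr5. Rpl11 had a difference of -0.96 between the Dll1 mean and Lgr5 with a wide error (SE 0.29, adjusted p = 0.050, just short of the threshold), and its CD24 low replicates stood at -0.74 and 0.05. Of the 8 proteins round the exit of the peptide tunnel, 3 rose in CD24 medium over CD24 high (Rpl22, Rpl31 and Rpl39) and 5 fell in the Dll1 mean against Lgr5. Of all genes 6.98% were called higher in the former comparison and 12.9% lower in the latter.

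In the small subunit, Rps2 and Rps3 line the entry of the mRNA. Rps3 rose in CD24 medium over CD24 high by 0.55 (SE 0.14, adjusted p = 0.037), or 0.24 (adjusted p = 0.27) with its brightest probe alone, and Rps2 had a difference of 0.10 (adjusted p = 0.63). Both fell in the Dll1 mean against Lgr5, by 0.69 and 0.57. Of the 3 beak proteins Rps10 and Rps27a rose in CD24 medium over CD24 high, and Rps10, Rps12 and Rps27a all fell in the Dll1 mean against Lgr5. The shares of all genes were 6.98% higher in the former comparison and 12.9% lower in the latter. Rpsa, the laminin receptor precursor, rose in CD24 medium over CD24 high by 0.55 (SE 0.15, adjusted p = 0.048) and was 2.49-fold lower in the Dll1 mean than in Lgr5 (-1.32, SE 0.16, adjusted p = 0.0029). Its 2 probes gave -0.61 and -2.03 against Lgr5, and with the brightest probe alone neither difference passed (0.30, adjusted p = 0.29, and -0.61, adjusted p = 0.057). Rps6, the substrate of the S6 kinases, had -0.62 and -0.54 in high, -0.13 and -0.19 in medium, -0.40 and -0.26 in low, and 0.11 in Lgr5. Its groups did not overlap between high and medium, yet neither that difference (0.43, adjusted p = 0.082) nor the one against Lgr5 (-0.46, adjusted p = 0.064) passed.

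The paralogs did not share a direction, and Rps27l and Rpl36al moved against the subunit medians. Rps27l, a homologue of Rps27 that is induced by p53, had ratios of 1.08 and 0.99 in high, -0.24 and -0.41 in medium, -0.32 and -0.38 in low, and -0.16 in Lgr5. It was 2.56-fold lower in CD24 medium than in CD24 high (-1.36, SE 0.14, adjusted p = 0.0025), a difference that turned to 0.29 with median centring in place of loess and stayed below 0 in the other 23 alternatives. Rps27 had -0.25 and -0.23 in high, 0.35 and 0.22 in medium, 0.20 and -0.01 in low, and 0.62 in Lgr5, and its medium minus high difference did not pass (0.53, adjusted p = 0.054).

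The gap between a paralog and its partner was also taken on each array. Rps27l minus Rps27 was 1.33 and 1.23 in high, -0.59 and -0.63 in medium, -0.52 and -0.38 in low, and -0.78 in Lgr5. The gap in CD24 high exceeded that in CD24 medium by 1.89, and by 1.82 to 1.95 under the 4 scalings. The Rps27 probe carries that gene's RefSeq accession, although its listed position lies on chromosome 9 and the gene on chromosome 3.

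Rpl36al, a homologue of Rpl36a, had 0.69 and 0.81 in high, 0.05 and 0.00 in medium, 0.25 and 0.25 in low, and -0.48 in Lgr5. It fell between CD24 high and CD24 medium by 0.73 (SE 0.14, adjusted p = 0.017) and was 1.77-fold higher in the Dll1 mean than in Lgr5 (0.83, SE 0.15, adjusted p = 0.0099). With median centring in place of loess both differences turned, to 0.77 and -0.57. The gap of Rpl36al minus Rpl36a was 0.28 and 0.49 in high, -0.83 and -0.67 in medium, -0.41 and -0.30 in low, and -1.74 in Lgr5. Its high minus medium difference was 1.14, and 1.02 to 1.21 under the 4 scalings.

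Rpl22l1, which can take the place of Rpl22, had ratios of 0.30 and -0.03 in high, 0.61 and 0.41 in medium, 0.38 and 0.46 in low, and 0.75 in Lgr5, and passed neither test (adjusted p = 0.18 for medium minus high and 0.15 for the Dll1 mean minus Lgr5). Its gap over Rpl22 was 1.18 and 1.04 in high, 0.35 and 0.04 in medium, 0.44 and 0.22 in low, and -0.57 in Lgr5. With probes averaged per gene this gap was thus widest in CD24 high, by 0.91 over CD24 medium, and by 0.91 to 1.5 under the 4 scalings. The 2 Rpl22l1 probes gave 0.71 and 0.04 for medium minus high, and -0.81 and 0.01 for the Dll1 mean minus Lgr5. The latter of each pair came from a dim probe (mean log2 intensity 7.14), above background on 5 of 7 arrays. The gap by the brighter probes alone was not taken.

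Rps4y2 ran the other way. RefSeq now names it Rps4l and lists it as a transcribed pseudogene on chromosome 6. Its ratios were -0.33 and -0.57 in high, 0.93 and 0.95 in medium, 1.02 and 1.14 in low, and 2.03 in Lgr5. Its gap over Rps4x was -0.64 and -0.70 in high, 0.21 and 0.29 in medium, 0.67 and 0.48 in low, and 1.1 in Lgr5. The medium and low gaps turned below 0 with median centring (-0.45 and -0.38, -0.17 and -0.40) and with processed signals. The high minus medium difference of the gap was -0.92, or -1.32 to -0.92 under the 4 scalings. The Rpl7l1 gap over Rpl7 ran from 0.39 to 1.20 for high minus medium under the 4 scalings, and for high minus Lgr5 it was 0.21, turning to -0.20 with processed signals. Rpl7l1 did not pass for medium minus high (0.25, adjusted p = 0.40) or for the Dll1 mean minus Lgr5 (-0.67, adjusted p = 0.056). Rpl3l, a muscle paralog of Rpl3, was not well above background on any array of CD24 high, CD24 medium or Lgr5, and no fold is given. Rps19bp1 had a difference of 0.09 for medium minus high and 0.02 for the Dll1 mean minus Lgr5, and passed neither test.

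**Figure D4:**
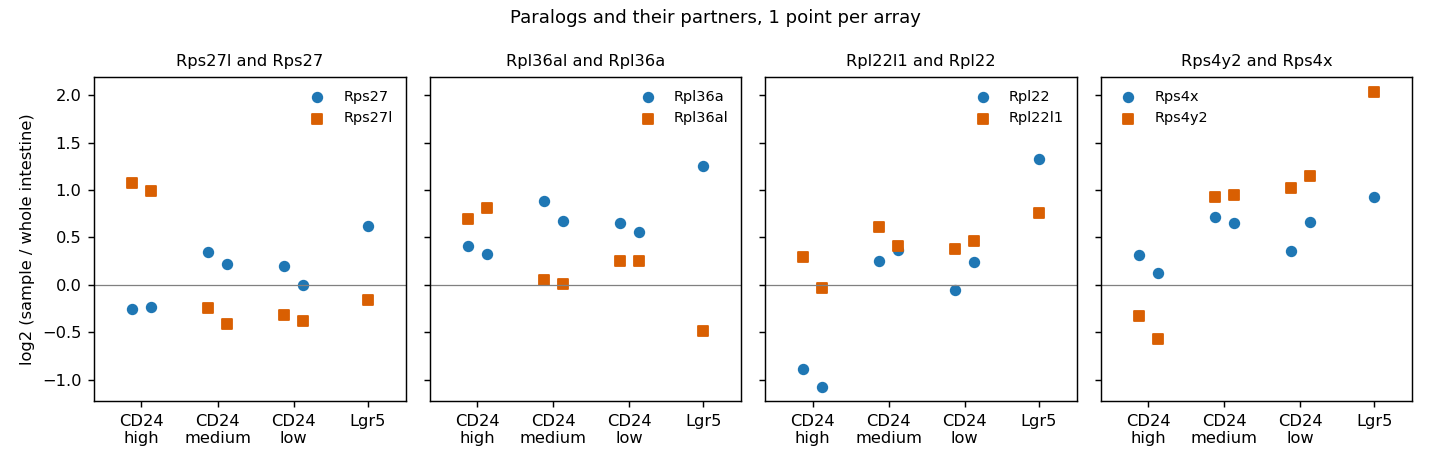
Log2 ratio of sample over whole intestine on each array for 4 paralogs (orange squares) and their partners (blue circles), with 2 arrays for each CD24 level and 1 for Lgr5. Rps27l lies above Rps27 in CD24 high alone among the groups shown. Rps27l and Rpl36al themselves fall from CD24 high to CD24 medium with loess and rise by 0.29 and 0.77 with median centring in its place, while the high minus medium differences of their gaps stay above 0 under the 4 scalings.

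Gnb2l1, the small subunit scaffold also called RACK1, lies outside the name rule. It rose in CD24 medium over CD24 high by 0.52 (adjusted p = 0.042) and fell in the Dll1 mean against Lgr5 by 0.68. Of 15 other TOP mRNAs, 4 rose and none fell in CD24 medium over CD24 high, with a median of 0.29, beside 6.98% of all genes higher and 12.4% lower. The 4 were Eif3f at 1.17, Npm1, a nucleolar chaperone, at 0.84, Eif3h at 0.78, and Btf3 at 0.55, which was named after its value was seen. In the Dll1 mean against Lgr5, 6 of the 15 fell and none rose, led by Npm1 at -1.30 and Eef1b2, an elongation factor subunit, at -1.22. Of all genes 12.9% were called lower and 16.5% higher there.

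The mitochondrial ribosomal proteins, which build the separate ribosome of that organelle and carry no TOP tract as a class, gave 11 rises and 2 falls of 76 in CD24 medium over CD24 high, with a median of 0.31. Of all genes 6.98% were called higher and 12.4% lower in this comparison. Against Lgr5 the Dll1 mean had 48 falls of 76 and no rise, with a median of -0.72, beside 12.9% of all genes called lower and 16.5% higher. Of 14 initiation factors outside the TOP list, 5 fell and none rose in CD24 medium over CD24 high. The largest falls were Eif4a2, an RNA helicase, at -0.95, Eif1, which guards start codon choice, at -0.94, and Eif5 at -0.73. With median centring in place of loess these values turned to 0.26, 0.37 and 0.31, and the list gave 8 rises and no fall. Over all 17390 genes 6256 were then called higher and 673 lower. Of 12 genes of mTORC1 and TOP control, Eif4ebp1, a translation repressor, fell by 1.72 and Rheb, the activator of mTORC1, by 1.29 in CD24 medium against CD24 high, and Mlst8, an mTOR partner, rose by 1.04. With median centring Eif4ebp1 stood at -0.37 and Rheb turned to 0.10.

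Probes limited these values in part. Of 35 subunit genes with over 1 kept probe, 28 had all probes in 1 direction for medium minus high and 29 for the Dll1 mean minus Lgr5. The median range between probes of a gene was 0.28 and 0.30. Rpl21 was the widest case named here, with its 2 probes at -0.35 and 0.57 for medium minus high and at 0.59 and -1.54 for the Dll1 mean minus Lgr5. It was chosen after its values were seen. Ribosomal protein genes have many near-identical processed pseudogenes, and cross-hybridisation of their RNA to these probes was not tested.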

How the data were processed

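Spot intensities and their log10 ratios were deposited for each of 7 arrays, and per the file headers were read with Agilent Feature Extraction 10.5.1.1. The authors' deposited log10 value table equalled these log10 ratios with the sign turned, within 5e-06, so its direction is sample over reference. Total RNA was amplified linearly before labelling, per the labels' protocols, and dyes were never swapped. Here spot means and local backgrounds were corrected with normexp (offset 50) and loess (span 0.3, control spots at weight 0) in limma 3.58.1 under R 4.3.3, and outlier spots were left out. Probes well above background in the sample channel on at least 2 arrays were kept, 24495 of 41174, and averaged per gene name. One fit held all 7 arrays by group, with 3 residual and 3.41 prior degrees of freedom, so the spread of the single Lgr5 sample is taken from the CD24 groups. No series column was left unmapped. Simulated data for CD24 medium minus CD24 high held 17222 genes. Of these, 100 were changed by a log2 difference of 1 and 100 by 2, in CD24 medium alone, and no other gene differed. There limma recovered 32 and 87 of them, with 6 false calls. In the data 19.4% of genes were called in this comparison, so the simulated recovery does not give the recovery in the data. The members and gene lists were chosen with earlier results of these data known. Named genes were the 6 largest differences in each direction among members past the threshold whose arrays did not overlap, fixed members (the P proteins, Rpl5, Rpl11, Rpl22, Rps6, Rpsa, Rps2, Rps3 and the paralogs), up to 3 per further list, and Cd24a, Dll1 and Lgr5. Nothing beyond the term biological replicate says how many animals each sort held. The number of arrays limits the precision. The list of ribosomal proteins with other names is reported in part.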

Additional observations from a re-analysis of the deposited data

How the results depend on the processing

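Counts below are ribosomal protein genes called, and medians are of the large and then the small subunit. No background subtraction, Aquantile scaling after loess, slide as a random block and an intensity trend kept every count within 1.5 times. They kept every median within 1 SD. This SD is that of the array medians within a CD24 level, pooled over levels, at 0.072 for the large and 0.063 for the small subunit. With median centring in place of loess, CD24 medium minus CD24 high gave 82 calls and medians of 1.96 and 1.94, low minus high 81 with 1.46 and 1.47, and low minus medium medians of -0.47 and -0.47. The Dll1 mean minus Lgr5 gave 82 with -2.19 and -2.29, and CD24 high minus Lgr5 medians of -3.37 and -3.34. CD24 medium minus Lgr5 gave 76 with -1.42 and -1.49, and CD24 low minus Lgr5 80 with -1.86 and -1.97. The shares of all genes called were 39.8%, 32.6%, 31.8%, 19.3% and 23.5% in the comparisons with counts here, in that order. Median centring reversed Rpl36al in CD24 medium minus CD24 high (0.77), the Dll1 mean (-0.57), CD24 high (-1.05) and CD24 low (-0.39) minus Lgr5. It also reversed Rps27l in medium minus high (0.29) and high minus Lgr5 (-1.35), and Rpl10 in low minus high (0.65).

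The sample channel alone gave 61 calls with medians of 0.78 and 0.67 for medium minus high, 57 with 0.63 and 0.63 for low minus high, and a small subunit median of -0.094 for low minus medium. Against Lgr5 it gave -0.87 and -1.13 for the Dll1 mean and -1.35 and -1.53 for CD24 high. CD24 medium gave 46 calls with -0.59 and -0.73, and CD24 low -0.68 and -0.91. The shares of all genes called were 22.9%, 25.2% and 16% in the comparisons with counts here, in that order. Agilent processed signals and the deposited value table both gave medians of 0.35 and 0.32 for low minus high, beside a median of all genes of 0.28 with processed signals. There 15 of 84 ribosomal protein genes were called higher, beside 3632 of 17390 genes, so the share of the former was not above that of all genes. Against Lgr5 both gave 30 calls with -0.48 and -0.58 for the Dll1 mean, 43 with a large subunit median of -0.76 for CD24 high, 5 with -0.27 and -0.34 for CD24 medium, and 13 with -0.45 and -0.54 for CD24 low. With processed signals 31.6%, 41.2%, 16.5% and 19.1% of all genes were called in these comparisons, in that order. The 5 of 84 for CD24 medium were lower, beside 1182 of 17344 genes, so that share too was not above that of all genes. The median of all genes moved to 0.24 in medium minus high with processed signals and to 0.34 with median centring. Over all genes, medium minus high had 1213 higher and 2161 lower calls, 3190 and 2111 with processed signals, 6256 and 673 with median centring, and 2119 and 1856 with the sample channel alone.

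An offset of 16 gave 18 calls and a small subunit median of 0.53 for medium minus high, and 9 calls for low minus high. It gave a small subunit median of -0.79 for the Dll1 mean minus Lgr5. CD24 medium and CD24 low minus Lgr5 had 7 and 22 calls. The shares of all genes called were 14%, 12%, 13.1% and 14.8% in the comparisons with counts here, in that order. Slide as a term gave 7 calls for low minus high, 30 for the Dll1 mean minus Lgr5 and 6 for CD24 medium minus Lgr5. All genes were called at 12.1%, 18.8% and 13.4% there. For CD24 low minus Lgr5 it gave 2 calls with a small subunit median of -0.61. Those 2 were lower, beside 432 of 17344 genes. Slide 2 alone, an alternative chosen after seeing the data, gave 3 calls for medium minus high and 4 with a large subunit median of 0.36 for low minus high. The brightest probe of each gene gave small subunit medians of 0.40 for medium minus high and -0.91 for CD24 high minus Lgr5. It gave 13 calls for CD24 medium minus Lgr5, beside 18.9% of all genes. For CD24 high minus Lgr5 the small subunit median was -0.93 with no filter on dim probes and -0.92 with probes above background on all 7 arrays. Probes on the gene's own chromosome, also added after seeing the data, gave small subunit medians of -0.80 for the Dll1 mean and -1.08 for CD24 high minus Lgr5. A fit of the compared groups only gave 11 calls for CD24 low minus Lgr5, beside 11.7% of all genes. The cause of these shifts was not tested.

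Leaving out 1 array at a time gave 6 to 28 calls for medium minus high, 5 to 17 for low minus high with a large subunit median of 0.26 to 0.36, 1 to 19 for CD24 medium minus Lgr5, and 17 to 29 for CD24 low minus Lgr5. A lone sample was there assumed to vary like the other groups. With the replicate block, medium minus high gave 26 calls and low minus high 17, beside 20.5% and 18.2% of all genes. Rpsa then lost its call in medium minus high (adjusted p = 0.058 in limma). The deviations of same-numbered arrays correlated at 0.29 for high and medium, -0.01 for high and low, and 0.47 for medium and low, so the numbers were not taken to pair the samples.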
